A study of Mus musculus with 12 samples.

Results

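The genes described here are 10 transcription factors and regulators of the circadian clock and of its output: Dbp, Tef, Hlf, Nfil3, Nr1d1, Nr1d2, Per1, Per2, Per3 and Arntl, the last also named Bmal1. They were taken as the 10 rows of the count table whose Ensembl identifier belongs to these symbols, of 56980 rows in all, and all 10 passed the filter on low counts. RNA came from the hippocampus of 12 male mice in 4 groups of 3, 1 library per mouse. All 12 mice carried the AppNL-G-F knock-in, an amyloid precursor protein gene with a humanised amyloid-β segment and familial Alzheimer's disease mutations that is expressed from its own locus. A pair of groups carried only this allele at 3 and at 9 months of age and is called App here. The other pair also lacked Trem2, a receptor of microglia (labelled AppNL-G-F; Trem2 KO), at the same ages, and is called Trem2 KO. There was no control without the knock-in. The labels give no hour of death and no dissection or extraction session, so that group and time of collection cannot be told apart.

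In nearly every cell the clock runs as a feedback loop. The activators BMAL1 (from Arntl) and CLOCK bind E-box sequences and switch on the Per and Cry genes, whose proteins then shut the activators off. They also switch on Dbp and the genes of the nuclear receptors REV-ERBα (Nr1d1) and REV-ERBβ (Nr1d2), which repress Arntl and Nfil3 at ROR elements. DBP, TEF and HLF are PAR bZIP factors that activate genes through D-box sequences, and NFIL3 represses through the same sequences. Transcripts of these genes rise and fall over the day in most tissues, hippocampus included, with Arntl near its peak when Dbp and Nr1d1 are low.

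Total counts ran from 14627892 to 24594655 per library. A count of 0 allows up to 3 counts, or 0.122 to 0.205 CPM (counts scaled to library size), which covers counting error only. Each clock gene was far above this limit, with at least 179 counts in every library. Trem2 was at most 3.83 CPM in the Trem2 KO libraries and at least 8.05 CPM in the App libraries. All 10 marker genes of hippocampal neurons were detected, with a summed level of 1165 to 1392 CPM. In 3 libraries, 1 App library at each age and Trem2 KO replicate 3 at 9 months, the summed level of 11 choroid plexus and ependyma markers was 341 to 376 CPM, against 1142 to 7824 CPM elsewhere.

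Promoters are shown for 5 of the genes called between genotypes over both ages and for Arntl, which was not called but whose libraries did not overlap between genotypes, with clock-related motifs in capitals. Of the 10 genes, 9 had an entry among the RefSeq promoters (build GRCm38.p6), with 12 start sites in all. Each promoter runs from 250 bases before to 50 bases after an annotated transcription start and is written 5′ to 3′ on the gene's strand. Both strands were searched for the E-box CACGTG, which reads the same on both, for the D-box as TTATGTAA or TTACGTAA, for the ROR element core TAGGTCA and for the cyclic AMP response element TGACGTCA. None of these 4 motifs overlapped another in the promoters of the clock genes.
Per3: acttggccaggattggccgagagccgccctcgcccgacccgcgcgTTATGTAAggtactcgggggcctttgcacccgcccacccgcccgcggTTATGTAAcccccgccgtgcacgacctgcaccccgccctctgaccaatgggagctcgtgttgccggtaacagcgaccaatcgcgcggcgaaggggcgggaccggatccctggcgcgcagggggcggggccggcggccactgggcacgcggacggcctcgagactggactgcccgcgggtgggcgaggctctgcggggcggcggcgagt
Tef: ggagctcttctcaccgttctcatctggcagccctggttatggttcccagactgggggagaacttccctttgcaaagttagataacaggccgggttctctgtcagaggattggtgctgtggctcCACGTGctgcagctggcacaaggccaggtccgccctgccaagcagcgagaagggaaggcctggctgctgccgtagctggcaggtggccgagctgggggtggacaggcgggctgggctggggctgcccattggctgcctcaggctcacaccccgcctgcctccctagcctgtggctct
Arntl: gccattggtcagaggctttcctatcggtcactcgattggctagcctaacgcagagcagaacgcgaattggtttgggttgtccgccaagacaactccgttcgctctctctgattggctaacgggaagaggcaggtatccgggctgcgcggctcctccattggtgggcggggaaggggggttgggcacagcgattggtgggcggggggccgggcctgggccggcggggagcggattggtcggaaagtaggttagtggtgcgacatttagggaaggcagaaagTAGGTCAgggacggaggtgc
Nfil3: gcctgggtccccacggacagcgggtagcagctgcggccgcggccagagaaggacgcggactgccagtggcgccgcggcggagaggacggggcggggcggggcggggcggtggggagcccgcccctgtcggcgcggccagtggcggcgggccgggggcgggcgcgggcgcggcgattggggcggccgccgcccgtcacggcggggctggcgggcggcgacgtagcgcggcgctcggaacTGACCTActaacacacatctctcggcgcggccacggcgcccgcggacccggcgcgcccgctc
Dbp: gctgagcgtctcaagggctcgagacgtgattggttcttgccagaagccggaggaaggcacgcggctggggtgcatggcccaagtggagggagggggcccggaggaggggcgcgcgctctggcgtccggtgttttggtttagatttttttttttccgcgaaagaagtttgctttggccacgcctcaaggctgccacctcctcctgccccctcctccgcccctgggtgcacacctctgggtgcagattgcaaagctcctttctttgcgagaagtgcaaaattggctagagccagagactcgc
Nr1d1: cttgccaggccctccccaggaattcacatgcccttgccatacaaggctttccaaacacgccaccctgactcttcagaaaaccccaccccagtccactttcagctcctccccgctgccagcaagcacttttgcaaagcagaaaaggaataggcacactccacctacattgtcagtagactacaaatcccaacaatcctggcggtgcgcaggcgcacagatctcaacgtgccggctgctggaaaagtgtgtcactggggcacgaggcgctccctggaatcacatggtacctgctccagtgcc

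The Per3 promoter (chr4:151044616-151044915, minus strand) held the D-box 2 times, with the first bases at -205 and -158 from the start. A D-box of these letters was in 1.06% of 32851 promoters of the same length, and 2 or more were in 0.0244%. The E-box was present in the promoters of 2 of the genes, Tef (first base at -127 in chr15:81802423-81802722, plus strand, and at -138 from a second start) and Per1 (at -166), and in 7.15% of all promoters. Counted by gene, 8.09% of 27025 genes had it in at least 1 promoter. The ROR element core lay at position 31 after the second Arntl start (chr7:113207261-113207560, plus strand) and, on the opposite strand as TGACCTA, at -12 in Nfil3 (chr13:52980990-52981289, minus strand). It was in 2.61% of all promoters, and 2.97% of the 27025 genes had it in at least 1 promoter. Hlf held the cyclic AMP response element at -9, which was in 1.79% of all promoters. The promoters of Dbp (chr7:45704997-45705296, plus strand) and Nr1d1 (chr11:98775328-98775627, minus strand) held none of the 4 motifs in this window, nor did that of Nr1d2. These matches describe letters and show no binding.

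In edgeR's quasi-likelihood F-test, with p-values adjusted over 19152 genes (Benjamini-Hochberg), 1 of the 10 was called (adjusted p under 0.05) between genotypes at 9 months, Nr1d1, where 2.08% of all genes were called. None of the 10 was called at 3 months (0.59% of all genes), although 7 of them had an unadjusted p under 0.05, against 11.2% of all genes, and DESeq2 called 3 of them. At 9 months 6 of the 10 had an unadjusted p under 0.05, against 13.6% of all genes. Averaged over both ages, 6 against 6 libraries in the same fit, 6 of the 10 were called, against 4.14% of all genes. Dbp and Nr1d1 were higher in Trem2 KO mice (1.6% of all genes were called higher) and Tef, Hlf, Nfil3 and Per3 were lower (2.54% of all genes were called lower). This average over ages was chosen after the data were seen, while the separate ages were the planned comparisons.

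Nr1d1, which encodes the repressor REV-ERBα, stood at 86.5, 80.6 and 87.6 CPM in the App libraries at 3 months and at 77.3, 82.8 and 72.0 CPM at 9 months. Without Trem2 it stood at 89.7, 103 and 112 CPM at 3 months and at 96.8, 99.3 and 96.2 CPM at 9 months. Every Trem2 KO library was above every App library of both ages, so the genotypes did not overlap, and the 3 Trem2 KO libraries at 9 months lay close together. The log2 fold change by edgeR's quasi-likelihood test was 0.26 ± 0.069 (SE) at 3 months (adjusted p = 0.0939) and 0.33 ± 0.070 at 9 months (adjusted p = 0.013), with 3 libraries per group. Over both ages it was 0.30 ± 0.049 (95% interval 0.19 to 0.40, adjusted p = 0.00109), a level 123% of that in App mice. Only 0.804% of all genes were higher without overlap in 6 against 6 libraries. Without App replicate 1 at 9 months the adjusted p at that age was 0.053, and without App replicate 3 it was 0.101. Part of the gene, 263 bases or 8.55% of its exons, overlaps Thra on the opposite strand, and the strand setting of the counting is not given. Thra, a thyroid hormone receptor gene, was not called over both ages (log2 fold change 0.021 ± 0.045, adjusted p = 0.863).

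Nr1d2, which encodes the related repressor REV-ERBβ, was not called at either age. Its levels were 155 to 161 CPM in App mice and 149 to 161 CPM in Trem2 KO mice at 3 months, and 150 to 164 CPM against 187, 154 and 147 CPM at 9 months. The groups overlapped at both ages, and only Trem2 KO replicate 1 at 9 months stood above the rest. Over both ages the log2 fold change was 0.022 (95% interval -0.083 to 0.13, adjusted p = 0.867 by edgeR).

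Dbp, the PAR bZIP factor with a wide daily swing in many tissues, stood at 31.5, 34.2 and 38.5 CPM in App mice at 3 months and at 32.5, 29.6 and 26.4 CPM at 9 months. Without Trem2 it stood at 42.6, 44.6 and 47.7 CPM at 3 months and at 51.1, 38.8 and 34.3 CPM at 9 months. Within each age the genotypes did not overlap, and only Trem2 KO replicate 3 at 9 months fell among the App libraries of the other age. The log2 fold change by edgeR's quasi-likelihood test was 0.37 ± 0.13 at 3 months (adjusted p = 0.269) and 0.49 ± 0.13 at 9 months (adjusted p = 0.0847). Over both ages it was 0.43 ± 0.092 (95% interval 0.23 to 0.63, adjusted p = 0.0194), or 135% of the App level. That call was lost without App replicate 2 at 3 months, App replicate 2 or 3 at 9 months or Trem2 KO replicate 3 at 3 months, where the adjusted p was 0.0527, 0.0532, 0.0623 and 0.0556. Of the exon bases, 18.0% overlap Sphk2, a sphingosine kinase gene on the opposite strand, which was not called over both ages (log2 fold change -0.068 ± 0.053, adjusted p = 0.555).

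Tef and Hlf, the other PAR bZIP factors, moved the opposite way from Dbp. Tef stood at 428, 472 and 453 CPM in App mice and at 393, 407 and 409 CPM in Trem2 KO mice at 3 months. The values at 9 months were 468, 465 and 454 CPM in App mice and 408, 412 and 444 CPM in Trem2 KO mice. The genotypes did not overlap within either age, but Trem2 KO replicate 3 at 9 months exceeded the lowest App library at 3 months. Over both ages Tef fell by 0.15 ± 0.035 on the log2 scale by edgeR's quasi-likelihood test (adjusted p = 0.0184), to 90.3% of the App level. The call was lost without App replicate 2 at 3 months (adjusted p = 0.0632) and without Trem2 KO replicate 2 at 9 months (adjusted p = 0.0507).

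Hlf stood at 180.1, 171 and 174 CPM in App mice and at 158, 144 and 154 CPM in Trem2 KO mice at 3 months. The older mice had 165, 165 and 182 CPM in App mice and 153, 137 and 158 CPM in Trem2 KO mice. All 6 Trem2 KO libraries lay below all 6 App libraries, which 1.11% of all genes did. Over both ages Hlf fell by 0.20 ± 0.041 on the log2 scale by edgeR's quasi-likelihood test (adjusted p = 0.00714), to 87.1% of the App level. Its difference was of like size at 3 months (-0.21 ± 0.058, adjusted p = 0.119) and at 9 months (-0.19 ± 0.058, adjusted p = 0.102). Leaving out each of the 12 libraries in turn ended the call over both ages for none of Hlf, Nr1d1 and Per3.

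**Figure D1:**
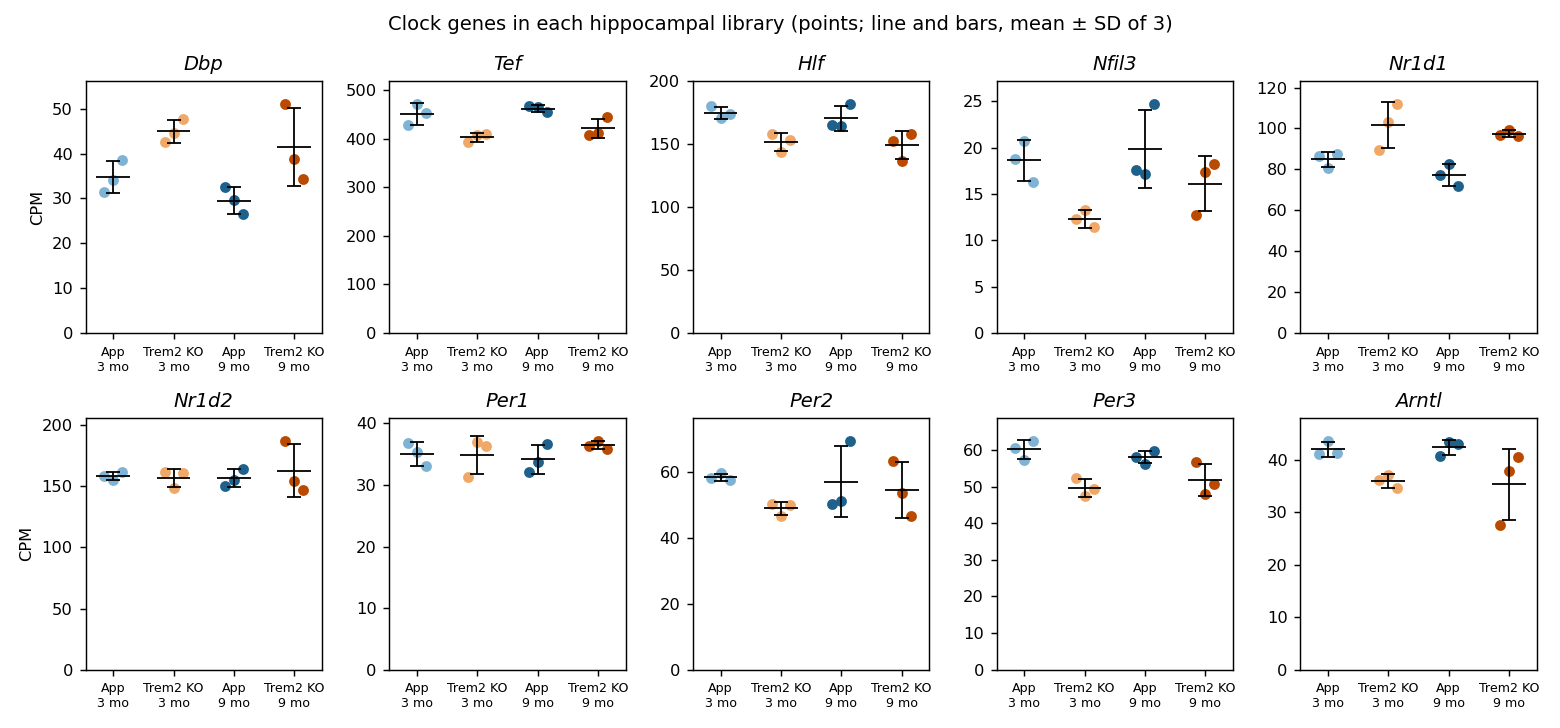
Level of each of the 10 clock genes in CPM (vertical axis, from 0) in each of the 12 libraries (points) by group (horizontal axis), with the mean and SD of 3 libraries as lines and bars. The Nr1d1 points of Trem2 KO mice all lie above those of App mice and the Hlf and Arntl points all lie below, while Nr1d2 and Per1 overlap between the groups.

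Nfil3, the repressor that competes for D-boxes, had the widest relative difference at 3 months. It stood at 18.8, 20.8 and 16.3 CPM in App mice and at 12.3, 13.3 and 11.4 CPM in Trem2 KO mice at that age, with no overlap. At 9 months it stood at 17.6, 17.2 and 24.7 CPM in App mice and at 12.7, 17.4 and 18.2 CPM in Trem2 KO mice, and the groups overlapped. The log2 fold change by edgeR's quasi-likelihood test was -0.59 ± 0.16 at 3 months (adjusted p = 0.111), -0.30 ± 0.15 at 9 months (adjusted p = 0.413) and -0.45 ± 0.11 over both ages (adjusted p = 0.0309). The call over both ages was lost without App replicate 1 or 2 at 3 months, App replicate 3 at 9 months or any 1 Trem2 KO library at 3 months, where the adjusted p ran from 0.0509 to 0.0935. With 179 to 462 reads per library, Nfil3 had the fewest reads of the 10 genes.

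Arntl, which encodes the activator BMAL1, stood at 41.1, 43.7 and 41.4 CPM in App mice and at 36.2, 37.1 and 34.6 CPM in Trem2 KO mice at 3 months. The values at 9 months were 40.8, 43.4 and 43.0 CPM in App mice and 27.7, 37.8 and 40.5 CPM in Trem2 KO mice. All 6 Trem2 KO libraries lay below all 6 App libraries, with the lowest value in replicate 1 at 9 months. The difference did not pass the threshold of edgeR's quasi-likelihood test over both ages (log2 fold change -0.24 ± 0.071, adjusted p = 0.0619). It passed with DESeq2 (-0.25, adjusted p = 0.0306), with edgeR without the filter on low counts (-0.24, adjusted p = 0.00115) and with edgeR when Trem2 KO replicate 3 at 9 months was left out (-0.30, adjusted p = 0.00904). Over both ages, with 1 library left out at a time, the log2 fold change ran from -0.30 to -0.17. With the covariates described below, edgeR did not call Arntl. It had -0.22 with choroid plexus markers (adjusted p = 0.0926), -0.20 with fibroblast markers (adjusted p = 0.439) and -0.22 with transcript length (adjusted p = 0.289).

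Of the Period genes, which encode the repressors that close the loop with the cryptochromes, Per3 alone was called over both ages; whether it differed from the others was not tested. It stood at 60.5, 57.3 and 62.5 CPM in App mice and at 52.3, 47.5 and 49.2 CPM in Trem2 KO mice at 3 months. The older mice had 58.2, 56.3 and 59.7 CPM in App mice and 56.6, 48.1 and 50.7 CPM in Trem2 KO mice. The groups did not overlap at 3 months, and at 9 months only Trem2 KO replicate 1 reached the App range. Over both ages Per3 fell by 0.22 ± 0.047 on the log2 scale by edgeR's quasi-likelihood test (adjusted p = 0.00909), to 85.8% of the App level. At 3 months alone its adjusted p was 0.0563, the lowest of the 10 genes at that age.

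Per2 was lower without overlap at 3 months, at 46.8 to 50.4 CPM in Trem2 KO mice against 57.7 to 59.7 CPM in App mice. At 9 months it overlapped, at 63.6, 53.7 and 46.7 CPM in Trem2 KO mice against 50.5, 51.4 and 69.7 CPM in App mice. App replicate 3 and Trem2 KO replicate 1 were the high libraries at that age. Over both ages its log2 fold change was -0.16 (95% interval -0.35 to 0.036, adjusted p = 0.388 by edgeR). Per1, which neuronal activity and glucocorticoids also induce, ran from 32.1 to 36.9 CPM in App mice and from 31.3 to 37.2 CPM in Trem2 KO mice. Its groups overlapped at both ages, and its log2 fold change over both ages was 0.045 (95% interval -0.068 to 0.16, adjusted p = 0.721 by edgeR).

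**Figure D2:**
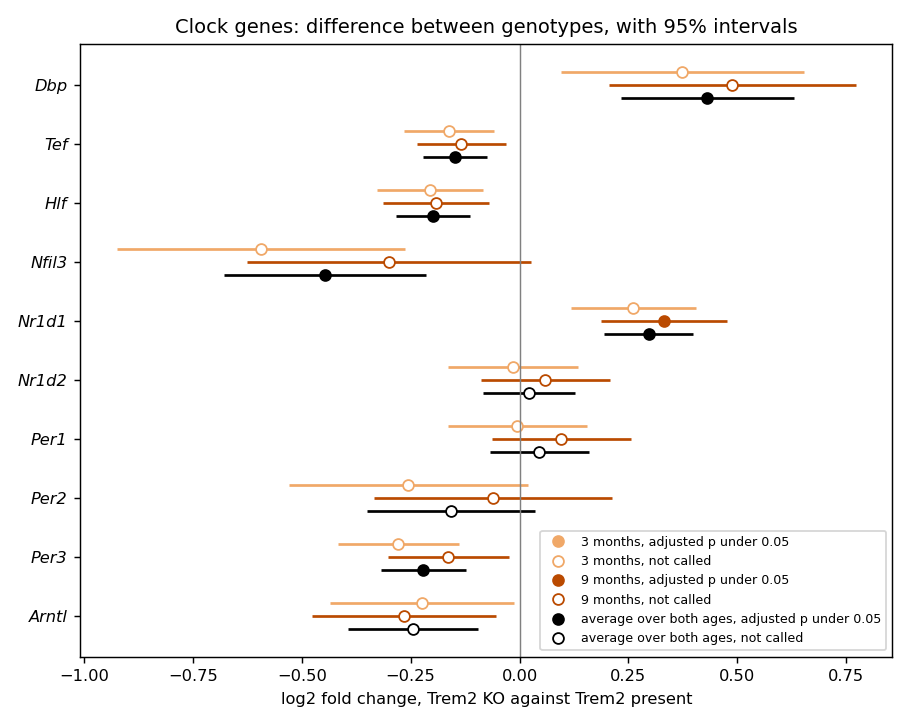
Log2 fold change of each clock gene in Trem2 KO against App mice (horizontal axis) at 3 months, at 9 months and averaged over both ages, with 95% intervals. Filled points have an adjusted p under 0.05: Nr1d1 at 9 months, and Dbp, Nr1d1, Tef, Hlf, Nfil3 and Per3 over both ages, of which the first pair is higher and the rest lower.

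Counted by library, 8 of the 10 genes had groups that did not overlap at 3 months (Dbp and Nr1d1 higher, and Tef, Hlf, Nfil3, Per2, Per3 and Arntl lower), against 17.6% of all genes. At 9 months 5 of the 10 did (Dbp and Nr1d1 higher, and Tef, Hlf and Arntl lower), against 17.3%. Over both ages, 6 libraries against 6, 3 of the 10 did (Nr1d1, Hlf and Arntl), against 1.91%. The median log2 fold change of the 10 was -0.18 at 3 months and -0.097 at 9 months, with 0.0028 and 0.0066 over all genes tested. No change of the genotype difference with age was called: none of the 10 was called for the interaction (0.266% of all genes), and none had an unadjusted p under 0.05 (6.04% of all genes). DESeq2 also called none.

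The number of calls at a single age depended on the fit. At 3 months DESeq2 called 3 of the genes (Nfil3, Nr1d1 and Per3, with 1.64% of all genes called). Without the filter on low counts edgeR called 6 at 3 months (Dbp, Hlf, Nfil3, Nr1d1, Per2 and Per3, 0.91% of all genes) and 4 at 9 months (Dbp, Hlf, Nr1d1 and Arntl, 2.18%), and with only the 6 libraries of 3 months in the fit it called 5 (Dbp, Hlf, Nfil3, Per2 and Per3, 1.19%). At 3 months, leaving out Trem2 KO replicate 1 at 9 months gave 3 calls (0.764% of all genes). For the same comparison, 1 call was made without App replicate 3 at 9 months (0.783%). The number was also 1 without Trem2 KO replicate 1 at 3 months (0.275%) or Trem2 KO replicate 2 at 9 months (0.68%). At 9 months, leaving out Trem2 KO replicate 3 of that age gave 4 calls (2.83% of all genes). Leaving out App replicate 1 or 3 of that age gave 0 (1.23% and 0.89%). Over both ages the count was 3 without App replicate 2 at 3 months (2.71% of all genes). In all these fits Nr1d1 at 9 months and the 6 genes over both ages kept the sign of their log2 fold change.

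Age gave no call within either genotype. From 3 to 9 months none of the 10 was called in App mice, where 6.66% of all genes were, or in Trem2 KO mice, where 8.7% were, and DESeq2 called none in either. None in App mice and 1 in Trem2 KO mice had an unadjusted p under 0.05 (17.1% and 22.7% of all genes), and for all 10 the libraries of the ages overlapped in both genotypes (22.7% and 25.4% of all genes did not). The gene with the low p was Nfil3, at 12.3 ± 0.951 CPM (SD, n = 3) at 3 months and 16.1 ± 2.97 CPM at 9 months in Trem2 KO mice, with a log2 fold change of 0.38 ± 0.16 (adjusted p = 0.155 by edgeR). It was called without Trem2 KO replicate 1 at 9 months (0.53, adjusted p = 0.0237). In App mice the largest age difference was that of Dbp (-0.23, 95% interval -0.52 to 0.054, adjusted p = 0.428 by edgeR). The mice of the ages were different animals, so that age and time of collection cannot be told apart either.

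A per-library contrast summed up how far the outputs stood from Arntl: the mean log2 CPM of Dbp, Tef, Hlf, Nr1d1, Nr1d2, Per1, Per2 and Per3 minus the log2 CPM of Arntl, in which the scaling of libraries cancels. It is a description with no test. It was 1.13, 1.04 and 1.15 in App mice at 3 months and 1.06, 0.974 and 1.05 at 9 months. Without Trem2 it was 1.26, 1.23 and 1.40 at 3 months and 1.80, 1.20 and 1.08 at 9 months. The groups did not overlap at either age, and Trem2 KO replicate 1 at 9 months stood far above the other 11 libraries. The difference between genotypes at 9 months was 0.33, and 0.11 without that library, while at 3 months it was 0.19. The log2 fold change of Arntl alone was -0.27 at 9 months and -0.22 at 3 months by edgeR. At 3 months Dbp (0.37) and Nr1d1 (0.26) were higher in Trem2 KO mice. Tef (-0.16), Hlf (-0.21), Per2 (-0.26) and Per3 (-0.28) were lower, and Nr1d2 (-0.015) and Per1 (-0.0056) differed little. At 9 months the values of Dbp, Nr1d1, Nr1d2 and Per1 were positive and those of Tef, Hlf, Per2 and Per3 negative. The contrast thus largely restates Arntl and shows no common rise of the outputs.

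The ratio of Dbp to Arntl in CPM ran from 0.767 to 0.932 in App mice and from 1.18 to 1.38 in Trem2 KO mice at 3 months, and from 0.616 to 0.797 against 0.847, 1.03 and 1.84 at 9 months. The highest ratio was again that of Trem2 KO replicate 1 at 9 months, the library with the highest Dbp and Nr1d2 and the lowest Arntl of the 12. Its Nr1d1, at 96.8 CPM, lay between those of the other 2 libraries of its group. With that library, the SD of the contrast was 0.387 in its group and at most 0.0906 in the other 3 groups. Gene by gene this held only in part. The coefficient of variation there was the highest of the 4 groups for Dbp (20.9%), Hlf (7.41%), Nr1d2 (13.2%), Per3 (8.41%) and Arntl (19.2%). For Tef and Per2 another group was higher. That of Nr1d1 was 1.70% and that of Per1 1.85% there, the lowest of the 4 groups for both.

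**Figure D3:**
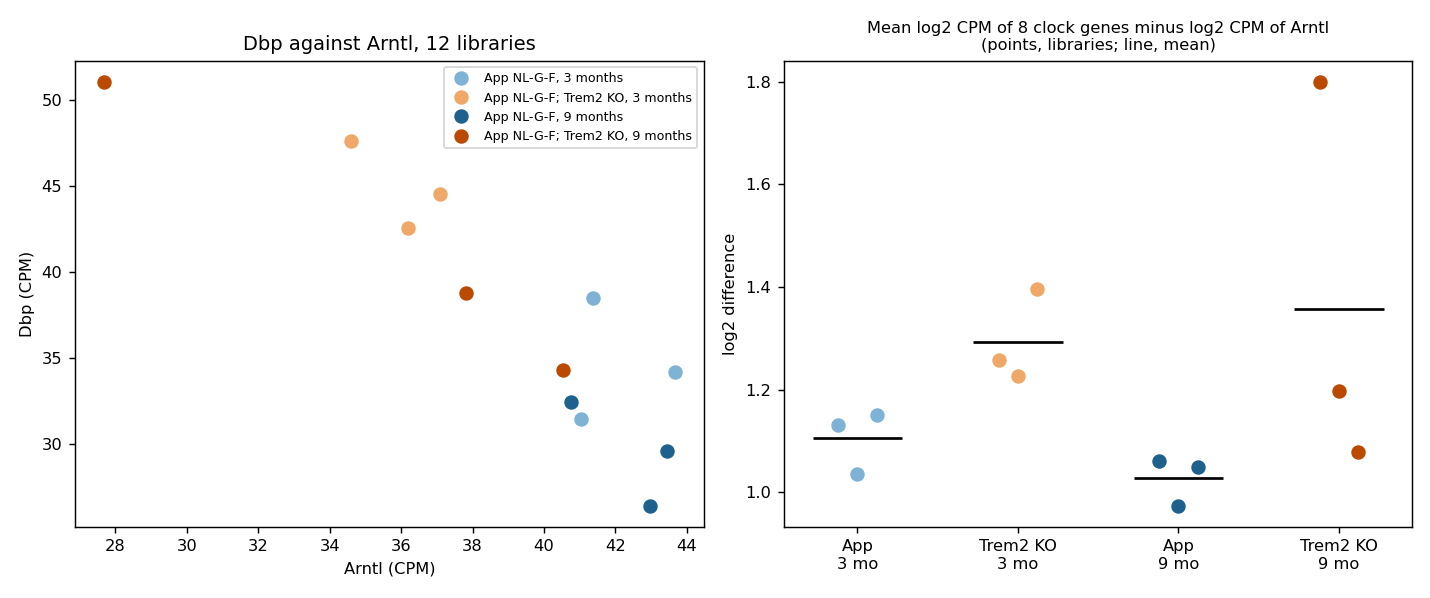
Left, Dbp (vertical axis) against Arntl (horizontal axis) in CPM, axes not from 0, with 1 point per library. Right, the mean log2 CPM of 8 clock genes minus the log2 CPM of Arntl in each library by group, with group means as lines. Trem2 KO replicate 1 at 9 months is the top left point at 51.1 CPM of Dbp and 27.7 CPM of Arntl, and the highest point on the right at 1.80.

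The genes varied together across the 12 libraries. Of 45 pairs, 13 had a correlation of log2 CPM with an adjusted p under 0.05 (permutation test, 100000 resamples, adjusted over the 45 pairs), 6 positive and 7 negative. By Spearman's rho 15 pairs passed. The permutations shuffled all 12 libraries whatever their group, so these p-values do not separate shared genotype differences from variation between mice of a group. Since genotype separates the libraries for several of the genes, each r is also given on deviations from the 4 group means, as a description: 12 of the 13 pairs kept their sign there, and 5 had a size above 0.5. The count of pairs was 6 without Trem2 KO replicate 2 at 3 months, 7 without replicate 3 of that group and 19 without Trem2 KO replicate 1 at 9 months.

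Dbp and Arntl, which peak at opposite times of the daily cycle, had r = -0.849 and rho = -0.860 (permutation test, adjusted p = 0.0021 and 0.00697), and r = -0.828 on the deviations. Without the 2 libraries farthest from the median of Dbp the r of log2 CPM, not of the deviations, was -0.883. It was -0.367 within the 6 App and -0.853 within the 6 Trem2 KO libraries. Dbp and Nfil3, an activator and a repressor of the same D-boxes, had r = -0.895 and rho = -0.811 (permutation test, adjusted p = 0.0021 and 0.0172), r = -0.839 on the deviations and -0.841 without the 2 farthest libraries. Within groups, Dbp and Arntl spanned the widest opposite range in Trem2 KO mice at 9 months, and the r of their deviations rests mostly on that group. No opposition was seen in App mice at 3 months, where the library with the highest Dbp (38.5 CPM) had 41.4 CPM of Arntl and the one with the lowest (31.5 CPM) had 41.1 CPM.

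Hlf and Per3, both lower in Trem2 KO mice, had r = 0.878 and rho = 0.881 (permutation test, adjusted p = 0.0021 and 0.00697), r = 0.649 on the deviations and 0.860 without the 2 farthest libraries. Dbp and Nr1d1, both targets of the activators and both higher in Trem2 KO mice, had r = 0.817 and rho = 0.860 (permutation test, adjusted p = 0.0155 and 0.00697), but r = 0.312 on the deviations. Nr1d2 and Per2, which showed no call between genotypes, had r = 0.676 (permutation test, adjusted p = 0.0484, rho = 0.657 with adjusted p = 0.056) and r = 0.815 on the deviations. That pair tracked each other between mice of a group more than across the whole set.

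Per kilobase of exon, Tef was the most abundant of the 10, at 55.2 ± 3.55 CPM per kilobase (SD, n = 12). Nr1d1 at 29.4 ± 3.76, Nr1d2 at 29.3 ± 1.95 and Hlf at 24.2 ± 2.07 CPM per kilobase followed. These values pool the genotypes, between which the order of Nr1d1 and Nr1d2 changed. Nr1d1 was at 27.6 and 25.1 in App mice at 3 and 9 months, and Nr1d2 at 29.3 and 28.9. In Trem2 KO mice Nr1d1 was at 33.0 and 31.7, and Nr1d2 at 29.0 and 30.1. In App mice at 9 months Hlf, at 25.5, was also above Nr1d1. Dbp was at 12.6 ± 2.53, Per2 at 9.37 ± 1.20, Nfil3 at 8.26 ± 1.91, Per1 at 6.24 ± 0.365, Per3 at 5.71 ± 0.537 and Arntl at 5.17 ± 0.612 CPM per kilobase. From Per2 to Nfil3, and from Per1 to Arntl, each neighbour in this order lay within about the spread of the next. Nfil3, Dbp, Per2 and Arntl had a large pooled spread within groups. The SD of their log2 CPM within groups lay at percentiles 97.8, 95.4, 94.3 and 90.2 of 9121 genes (average log2 CPM 4 or more). For Arntl this rested on Trem2 KO mice at 9 months, with a coefficient of variation of 19.2% there and 3.37% to 3.52% elsewhere. That of Per2 was 18.9% in App and 15.6% in Trem2 KO mice at 9 months, against 1.82% and 4.07% at 3 months. Tef was among the steadiest, at percentile 12.5.

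Among 22 other genes of the clock, none was called between genotypes at either age, with age in either genotype or for the interaction by edgeR, and 4, 3, 4, 5 and 1 of them had an unadjusted p under 0.05 in these 5 comparisons, against 11.2%, 13.6%, 17.1%, 22.7% and 6.04% of all genes. DESeq2 called 1 of them, Ciart, between genotypes at 3 months and none in the other 4 comparisons. Over both ages 1 was called, against 4.14% of all genes: Usp2, a deubiquitinase with clock-driven transcription, which was higher in Trem2 KO mice (log2 fold change 0.19 ± 0.050, adjusted p = 0.0322 by edgeR). Ciart, a BMAL1-CLOCK repressor that cycles together with Dbp and Nr1d1, stood at 19.6, 17.8 and 21.9 CPM in App and 26.2, 26.7 and 34.2 CPM in Trem2 KO mice at 3 months, with no overlap. At 9 months it stood at 17.1, 20.4 and 20.6 CPM in App and 33.5, 20.7 and 20.8 CPM in Trem2 KO mice, where replicate 1 alone was high. Over both ages its log2 fold change was 0.47 ± 0.13 (adjusted p = 0.0847 by edgeR), and DESeq2 called both Ciart and Usp2.

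Clock, the partner of BMAL1, ran from 45.6 to 57.2 CPM over the 12 libraries, and its log2 fold change over both ages was -0.040 (95% interval -0.15 to 0.074, adjusted p = 0.758 by edgeR). Npas2, which can replace CLOCK in forebrain, had a log2 fold change of -0.24 ± 0.075 (adjusted p = 0.0935). The cryptochrome genes Cry1 and Cry2, repressors of the loop, had 0.021 (95% interval -0.11 to 0.15, adjusted p = 0.903) and 0.053 (-0.012 to 0.12, adjusted p = 0.398), and Bhlhe41, a repressor at E-boxes, had -0.042 (-0.21 to 0.12, adjusted p = 0.838). For Cry1 the interaction with age had a log2 value of 0.33 ± 0.12 (adjusted p = 0.554). None of these 5 passed the threshold over both ages.

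Other transcripts that respond to the state of an animal at death were read beside the clock genes. Of 15 genes that respond to temperature, the cold-induced RNA-binding proteins Cirbp and Rbm3 were higher in Trem2 KO mice at both ages. Cirbp was at 64.1 to 81.6 CPM in Trem2 KO and 33.1 to 45.4 CPM in App libraries, and the chaperone genes Hspa8 and Stip1 were lower at both ages. Over both ages 2 of the 15 were called higher (Cirbp and Rbm3) and 7 lower (adjusted p under 0.05 by edgeR). Of all genes, 1.6% were called higher and 2.54% lower. The log2 fold change was negative for 13 of the 15. Their part in the clock gene differences was not tested. Of 14 glucocorticoid-responsive genes, edgeR called only Cdkn1a, a cell cycle inhibitor, over both ages (log2 fold change -0.31 ± 0.082, adjusted p = 0.0334). Of 15 immediate early genes of neuronal activity it called only Fosl2 (-0.29 ± 0.068, adjusted p = 0.0272). DESeq2 called 2 of each list over both ages, adding Tsc22d3 and Egr2, all lower in Trem2 KO mice (6.45% of all genes were called). At 3 months it called Fosl2, Egr2 and Nr4a1 lower (1.64% of all genes) and no glucocorticoid-responsive gene. Lower without overlap were 5 of the 14 and 4 of the 15 genes at 3 months, and 2 and 0 at 9 months. None was higher without overlap (17.6% and 17.3% of all genes did not overlap). From 3 to 9 months Plin4, a lipid droplet gene of the glucocorticoid list, rose in both genotypes, and in Trem2 KO mice Pdk4, Fosb and Bag3 rose and Klf9 fell.

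Markers of other cell types also moved with the groups. In whole tissue, fewer cells of a type and less RNA per cell cannot be told apart. Of 10 microglial markers, 9 were called lower in Trem2 KO mice at 9 months and none at 3 months, with 2.08% and 0.59% of all genes called. At 3 months 4 had an unadjusted p under 0.05 (11.2% of all genes), and DESeq2 called none. The microglial sums were 842 to 899 CPM in Trem2 KO against 1422 to 1528 CPM in App mice at 9 months. At 3 months they were 525 to 549 CPM against 557 to 581 CPM. Of 8 endothelial markers, Slco1a4 and Itm2a were called higher in Trem2 KO mice at 9 months and over both ages and Flt1 was called lower at 3 months, names given after their values were seen. Their summed levels were 419 to 431 CPM against 324 to 360 CPM in App mice at 9 months, and 367 to 416 CPM against 371 to 388 CPM at 3 months. Markers of meningeal and perivascular fibroblasts (10 genes, all detected) summed to 317 to 444 CPM in Trem2 KO libraries at 9 months and to 210 to 287 CPM in the others. With the mean log2 level of these markers as a covariate, the log2 fold change of Nr1d1 at 9 months was 0.43 (adjusted p = 0.5 by edgeR), and over both ages Nr1d1 alone of the 10 was called (0.34 ± 0.071, adjusted p = 0.0311), with 0.585% of all genes called. That mean level was 4.51 to 4.88 in Trem2 KO libraries at 9 months and at most 4.14 in the others. The covariate thus nearly repeated that group, and the fit could hardly tell them apart. The standard errors were larger in this fit. Dbp had a log2 fold change of 0.45 ± 0.14, Hlf of -0.24 ± 0.060 and Per3 of -0.26 ± 0.069, no smaller than without the covariate. Tef had -0.12 ± 0.052 and Nfil3 -0.30 ± 0.16, both smaller in size than without the covariate. With the choroid plexus markers as a covariate the same 6 genes were called over both ages as without it. The part of microglial or endothelial RNA in the clock gene differences was not tested.

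A measure of transcript length moved with the groups too. A score of each library, the median log2 deviation of 2822 genes with short transcripts minus that of 2822 genes with long ones, ran from 0.051 to 0.10 in Trem2 KO and from -0.035 to 0.064 in App libraries at 3 months. At 9 months it ran from -0.047 to -0.011 against -0.096 to -0.028. The score covered the 20% of genes at each end of the length range. Over the 12 libraries, which share this score and the groups, its correlation was 0.692 with Dbp, 0.562 with Nr1d1 and -0.610 with Nfil3, as a description. It was -0.384 with Tef, -0.374 with Per2, -0.343 with Per3, -0.278 with Hlf, -0.273 with Arntl, -0.081 with Nr1d2 and -0.080 with Per1. Exon bases were 2026 for Nfil3, 2993 for Dbp and 3077 for Nr1d1. They were 5409 for Nr1d2, 5631 for Per1, 5856 for Per2, 6681 for Hlf, 7523 for Arntl, 7867 for Tef and 9608 for Per3. Whether a gene's direction followed its length was not tested. With the score as a covariate, chosen after the data were seen, Tef and Nr1d1 were called over both ages (1.76% of all genes), and the log2 fold change of Dbp was 0.30 (adjusted p = 0.187), that of Hlf -0.17 (adjusted p = 0.105), that of Per3 -0.22 (adjusted p = 0.0703) and that of Nfil3 -0.38 (adjusted p = 0.247, all by edgeR). The 6 genes kept their direction.

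**Figure D4:**
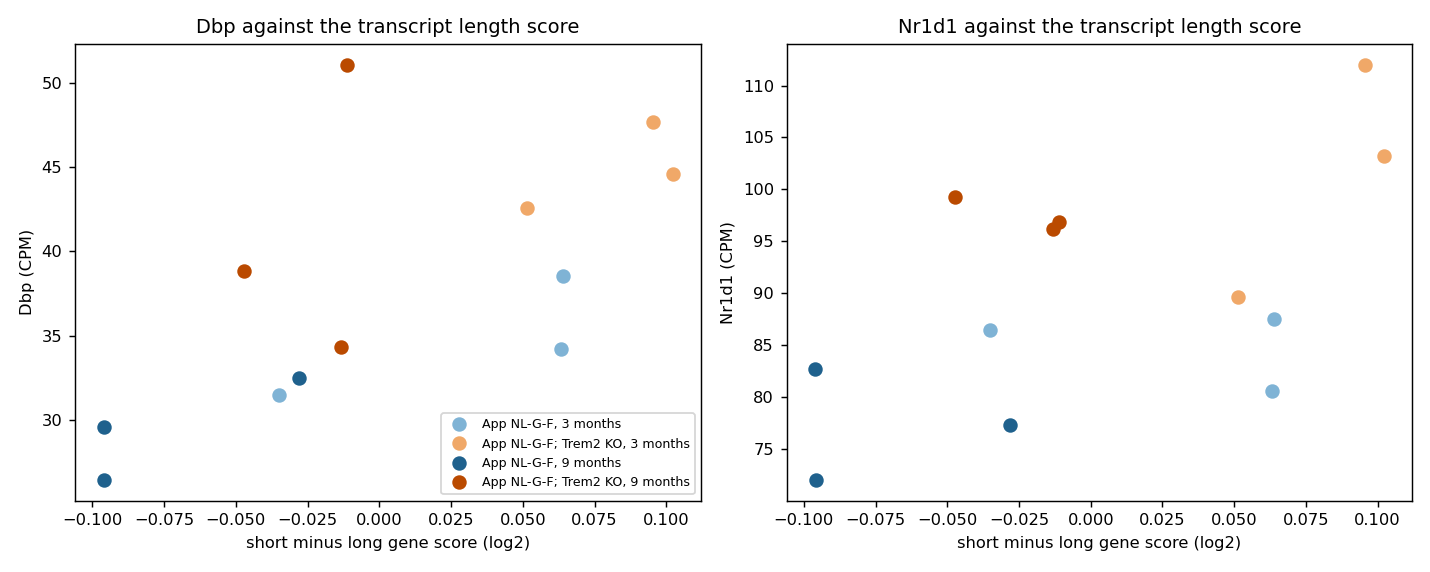
Dbp (left) and Nr1d1 (right) in CPM, axes not from 0, against the score of short minus long transcripts in log2 units, 1 point per library. For Nr1d1 all Trem2 KO points lie above all App points, whatever their score, so the panel does not test the part of transcript length. For Dbp the Trem2 KO points lie above the App points at the nearest scores. Trem2 KO replicate 3 at 9 months, at 34.3 CPM of Dbp, lies below the highest App library, at 38.5 CPM.

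The genes with the pattern most like that of Dbp over the 12 libraries, among 12881 genes and leaving out the 10, were Ccs (r = 0.917), Snrpa1 (0.898), Paxx (0.888), Wdr77 (0.882) and Abhd11 (0.877). The most opposite were Dpy19l1 (-0.937), Hdac4 (-0.918), Zfp760 (-0.918), Rftn2 (-0.916) and Ppp2r5a (-0.916). For Arntl the most alike were Ybey (0.910), Ensa (0.908), Klhl2 (0.903), Mturn (0.897) and Fam168b (0.892). The most opposite were Rbks (-0.897), Uggt2 (-0.891), Ccs (-0.876), Asah2 (-0.862) and Ciart (-0.847). Ciart is the only gene of the 22 other clock genes among these, and Ccs, the copper chaperone of superoxide dismutase, is the gene most like Dbp and among the most opposite to Arntl. These correlations share the libraries and their groups, and 1.46% of the genes had an r of at least 0.8 in size with Dbp and 0.683% with Arntl.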

How the data were processed

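Total RNA of the hippocampus was made into libraries with a SMART-Seq mRNA kit, per the labels' protocols. The authors deposited raw read counts per gene. Build GRCm39, featureCounts 2.0.3, STAR 2.7.10a, DESeq2 1.36.0 and R 4.2.0 are named in the submitters' processing notes, with no strand setting or annotation release. Symbols came from GENCODE M21 (GRCm38), which matched 52073 of 56980 identifiers, and unmatched ones held at most 0.252% of a library's reads. Exon lengths are from the same annotation. Counts were filtered with filterByExpr (minimum count 10, minimum total 15), scaled by TMM and tested with edgeR 4.0.16 (R 4.3.3, robust quasi-likelihood F-test, 1 term per group, 12 libraries, 8 residual degrees of freedom), adjusted over 19152 genes by Benjamini-Hochberg and called under 0.05. The test was tried on simulated counts. CPM in log2 values has a prior count of 2. Standard errors come from the F statistic. The 10 genes are all named; of the lists of clock, glucocorticoid, immediate early and temperature genes, those called (at most 4 per comparison) and 6 fixed clock genes are named, and for Dbp and Arntl the 5 most and least alike genes (average log2 CPM 1 or more). The members and lists were chosen with earlier results of these data known. Alternatives were other scaling, no filter, DESeq2 1.42.0, fewer groups, 1 library left out and covariates.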

Additional observations from a re-analysis of the deposited data

Results flagged for a closer look

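Each clock gene's level was examined in the 6 libraries of each genotype, ages pooled, for a highest or lowest library that stood far from the rest (its gap to the nearest other library above 0.625 of the whole range). Of 20 sets examined, 2 met this, and chance alone gives about 1 in 20. Nr1d2, the gene of REV-ERBβ, was at 187.1 CPM in Trem2 KO replicate 1 at 9 months, with the other 5 Trem2 KO libraries between 147 and 161 CPM. This library also had the highest Dbp (51.1 CPM) and the lowest Arntl (27.7 CPM) of the 12. Per1 was at 31.31 CPM in Trem2 KO replicate 1 at 3 months, with the other 5 between 35.9 and 37.2 CPM. That library had the lowest total count of the 12, 14627892.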

How the results depend on the processing

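Under other scaling (relative log expression, or total counts alone) and with choroid plexus markers as a covariate, the number of clock genes called was the same as reported in every comparison. Without the filter on low counts it was 6 at 3 months and 4 at 9 months between genotypes, with 0.91% and 2.18% of all genes called. In that fit it was 1 with age in Trem2 KO mice (6.09%). With DESeq2 it was 3 and 2 between genotypes at 3 and 9 months (1.64% and 3.23%). Over both ages it was 7 in both these fits, with Arntl added (3.06% without the filter and 6.45% with DESeq2). With only the groups compared it was 5 at 3 months (1.19%). With the fibroblast markers as a covariate, which nearly repeated the Trem2 KO group at 9 months, it was 0 at that age and 1 over both ages (0.141% and 0.585% of all genes). Over both ages Dbp (0.45), Hlf (-0.24) and Per3 (-0.26) lost the call there with log2 fold changes no smaller than before. Tef (-0.12) and Nfil3 (-0.30) also lost it, with log2 fold changes smaller in size than before. With the transcript length score it was 0 at 9 months and 2 over both ages (1.56% and 1.76%). The cause of these changes was not tested. Leaving out each library in turn gave 0 to 3 calls at 3 months (0.134% to 0.783% of all genes). It gave 0 to 4 at 9 months (0.89% to 2.83%) and 3 to 7 over both ages (2.33% to 4.73%). With age it gave 0 to 1 in Trem2 KO mice (3.96% to 9.76%) and 0 in each fit in App mice (4% to 7.86%). For the interaction it gave 0 in each fit (0.149% to 0.391%), and 6 to 19 pairs were correlated. With Dbp, Per2 and Nr1d1 alone against Arntl, the per-library contrast between genotypes at 3 months was 0.35, against 0.19 with 8 genes, at 9 months 0.53, against 0.33, and with age in App mice -0.15, against -0.078. Leaving out a library gave contrasts between genotypes from 0.14 to 0.22 at 3 months and from 0.11 to 0.47 at 9 months. No called direction reversed under any of these settings. No paired analysis was possible because the labels give mouse identifiers and no replicate numbers shared between groups. With 3 libraries per group, a miss of the threshold does not show that a gene was unchanged, and Nfil3, with the fewest reads, has the widest intervals of the genes at 3 months.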
